A study of Mus musculus with 12 samples.

Results

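The interferon response genes are 41 genes that interferons are known to induce, chosen by name: sensors of foreign nucleic acid, the transcription factors of the pathway, antiviral effectors, interferon-inducible GTPases, and the proteasome subunits and peptide transporters that feed MHC class I. Of these 41 genes, 39 were represented by at least 1 probe set carrying that single gene symbol, among 18193 genes in all. The probe set that covers Isg15 also lists a second gene, and Ifi44 was not listed under its symbol, so these were not used here. All 39 entered the test and none was removed by a filter on low values. Each gene was read from its brightest probe set (the highest mean log2 signal over the 12 arrays), and the 39 genes had 62 probe sets in all.

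RNA was measured on Affymetrix arrays, 1 per sample, in 6 lung tumours that arose spontaneously in untreated mice and in 6 normal lungs. All samples came from B6C3F1 mice aged 2 years, the hybrid used in long-term rodent bioassays, and carried no engineered allele or agent. Nothing in the labels ties the samples of a group to different animals, and the p-values therefore describe sample-to-sample spread that may be technical. Whole tissue was extracted, so that in every comparison below fewer cells of a type and less RNA per cell cannot be told apart.

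Interferons are secreted proteins that bind receptors on nearly all nucleated cells and signal through Janus kinases to STAT transcription factors. Type I interferons act mainly through the interferon-stimulated response element (ISRE), a DNA element bound by a complex that includes STAT2 and IRF9, and interferon gamma mainly through the gamma-activated site (GAS). In the lung this system restrains respiratory viruses and is kept at a low resting level in many cell types. Its target genes include direct inhibitors of viral replication, GTPases that attack pathogen vacuoles, and the machinery that cuts and loads peptides for display to CD8 T cells.

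The promoters of 6 of these genes are shown as examples of the DNA elements named above. Each of the 6 held a match and was lower in tumours. The genes were chosen as known interferon targets, so that choice and these elements are not independent. The windows run from 250 bases before to 50 bases after an annotated transcription start (RefSeq, GRCm38.p6), 5′ to 3′ along the gene. Capitals mark matches to an ISRE core pattern (GAAA, any pair of bases, GAAA) or a GAS pattern (TTCNNNGAA), searched on both strands.
Ifit1 (chr19:34640639-34640938, plus strand): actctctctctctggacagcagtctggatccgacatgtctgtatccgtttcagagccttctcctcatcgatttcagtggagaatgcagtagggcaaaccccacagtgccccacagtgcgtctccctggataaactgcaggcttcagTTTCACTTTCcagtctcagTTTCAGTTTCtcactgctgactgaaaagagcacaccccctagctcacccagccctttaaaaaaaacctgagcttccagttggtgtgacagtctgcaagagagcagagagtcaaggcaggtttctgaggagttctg
Ifit3 (chr19:34583279-34583578, plus strand): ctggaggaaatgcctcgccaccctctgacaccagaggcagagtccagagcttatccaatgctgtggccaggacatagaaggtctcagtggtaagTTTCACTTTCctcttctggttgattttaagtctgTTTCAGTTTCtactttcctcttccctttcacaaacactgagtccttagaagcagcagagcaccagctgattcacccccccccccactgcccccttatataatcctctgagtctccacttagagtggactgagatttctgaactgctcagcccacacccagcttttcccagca
Rsad2 (chr12:26456403-26456702, minus strand): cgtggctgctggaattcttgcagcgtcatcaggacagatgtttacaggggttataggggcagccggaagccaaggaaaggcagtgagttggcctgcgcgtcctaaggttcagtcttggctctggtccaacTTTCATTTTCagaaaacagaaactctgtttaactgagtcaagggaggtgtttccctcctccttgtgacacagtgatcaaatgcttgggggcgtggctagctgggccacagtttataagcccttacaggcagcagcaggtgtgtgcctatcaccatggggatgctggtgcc
Gbp2 (chr3:142620413-142620712, plus strand): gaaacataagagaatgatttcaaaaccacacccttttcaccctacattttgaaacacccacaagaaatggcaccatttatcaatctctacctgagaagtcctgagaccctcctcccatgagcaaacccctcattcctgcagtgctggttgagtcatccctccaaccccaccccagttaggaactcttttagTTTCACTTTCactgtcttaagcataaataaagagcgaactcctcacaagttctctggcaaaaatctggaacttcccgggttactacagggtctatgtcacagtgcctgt
Igtp (chr11:58199306-58199605, plus strand): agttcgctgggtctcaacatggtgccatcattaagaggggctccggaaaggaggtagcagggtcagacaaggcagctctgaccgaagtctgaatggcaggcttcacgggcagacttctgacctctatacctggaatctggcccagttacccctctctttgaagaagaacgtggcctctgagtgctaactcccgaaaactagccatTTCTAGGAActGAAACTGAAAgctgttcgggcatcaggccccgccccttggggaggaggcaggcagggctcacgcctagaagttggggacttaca
Irf1 (chr11:53769764-53770063, plus strand): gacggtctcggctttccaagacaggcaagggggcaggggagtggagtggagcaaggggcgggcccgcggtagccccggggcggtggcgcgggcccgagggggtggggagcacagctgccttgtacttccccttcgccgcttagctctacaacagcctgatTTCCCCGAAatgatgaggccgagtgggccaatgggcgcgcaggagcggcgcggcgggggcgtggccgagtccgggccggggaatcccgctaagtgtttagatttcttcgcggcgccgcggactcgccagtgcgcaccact
Ifit1 and Ifit3 each held a pair of ISRE patterns upstream of the start, at 104 and 85 bases and at 156 and 122 bases before it. Rsad2 had its ISRE pattern 120 bases and Gbp2 59 bases before the start. Igtp carried a GAS pattern at 45 bases and an ISRE pattern at 34 bases before its start, while Irf1 held a GAS pattern alone, 90 bases before the start. Of the 39 measured genes, 28 had such a window in the table, and 13 of these 28 (46.4%) held the ISRE pattern in at least 1 window, against 524 of 14452 genes on the arrays (3.63%). The GAS pattern occurred in 9 of 28 (32.1%), against 1239 of 14452 (8.57%). At least 1 of the patterns occurred in 19 of 28 (67.9%), so not all members shared them. The patterns overlapped each other in 1 window, that of Bst2. All 4 interferon GTPases and all 3 sensors with a window held the ISRE pattern, against 5 of 12 antiviral effectors and 1 of 5 transcription factors. The ISRE pattern was found in 9 of the 18 members with a window that fell in tumours and in 4 of the 10 others, and in 0 of 4 proteasome and transporter genes. A match to these letters is a description and not a measured binding site, and genes without a match lacked only these letters in this window.

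**Figure D1:**
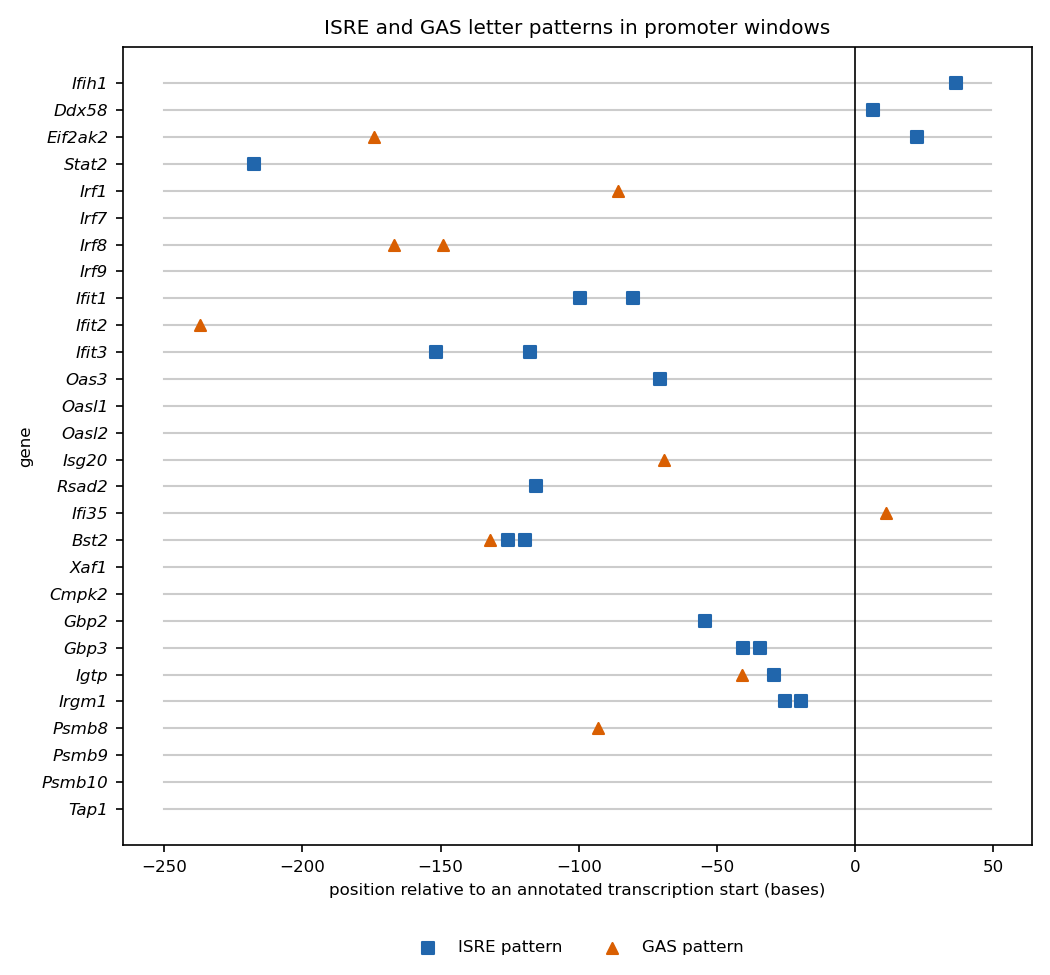
Positions of the ISRE pattern (blue squares) and the GAS pattern (orange triangles) in the promoter windows of the 28 genes with a window. The horizontal axis gives the distance of the pattern's centre from an annotated transcription start in bases, windows of a gene with several starts are drawn on 1 line, and a line with no symbol is a gene with no match. ISRE symbols stand on 13 lines and GAS symbols on 9.

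The interferon response genes mostly fell in the tumours. Of 39 genes 23 fell, where 17.4% of all genes fell, and 1 rose, Mx1, where 12.1% of all genes rose. The difference was below 0 for 35 of 39, with a median of -0.69 beside -0.08 over all genes. Each difference is the tumour mean less the mean of the normal lungs in log2(signal + 16) units, given ± its standard error, with 6 arrays per group. A gene is said to have risen or fallen where limma's p, adjusted by the Benjamini-Hochberg method over all 45037 probe sets, was under 0.05. Of the 23 that fell, 12 were at least 2-fold lower, led by Gbp2 (-1.55 ± 0.25), Oasl2 (-1.54 ± 0.37) and Gbp3 (-1.48 ± 0.29). For 10 genes every tumour lay below every normal lung, as was the case for 11.7% of all genes, and for 0 genes every tumour lay above, against 6.74% of all genes. These were Irf1, Ifit2, Ifi35, Xaf1, Cmpk2, Gbp2, Gbp3, Psmb9, Psmb10 and Tap2. The count of 23 depended on the scaling of the arrays, being 21 after quantile normalization and 15 after each array was centred on its median. Beside these counts, 15.9% and 12.8% of all genes fell. These scalings moved the median of all genes from -0.08 to 0.013 and 0.11, and the median of the 39 to -0.67 and -0.51.

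**Figure D2:**
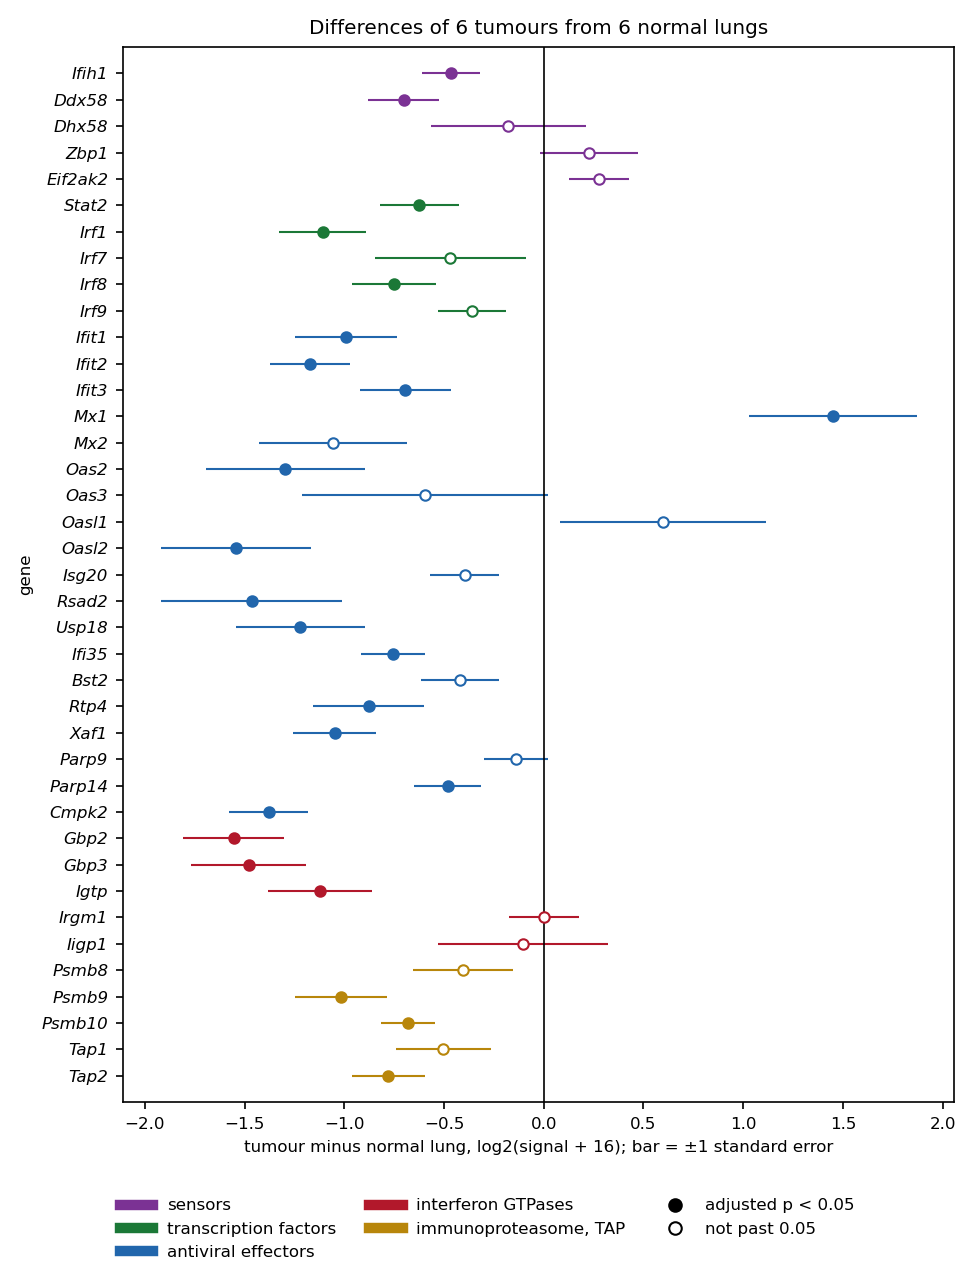
Difference of 6 tumours from 6 normal lungs for each of the 39 genes, on the log2(signal + 16) scale, with bars of ±1 standard error and colours for the role of the gene. Filled points passed the threshold of 0.05 on the adjusted p. Mx1 is the filled point to the right of 0, and 23 filled points lie to the left of it.

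Tumour 2 stood apart from the other tumours over much of the list. Averaged over the 39 genes, log2 signals stood 0.14 above the mean of the normal lungs in tumour 2, and lay between -1.08 and -0.61 in the other 5 tumours. Normal lungs lay between -0.27 and 0.13 on this measure. Tumour 2 was the highest of the 6 tumours for 28 of the 39 genes, against 19.4% of all genes. It was above the highest normal lung for 12 genes, within the normal range for 15 and below the lowest normal lung for 12. In the other 5 tumours 21 genes lay below every normal lung, against 13.1% of all genes. Of those 21 genes, 11 were not below the normal range in tumour 2. Without tumour 2, 26 genes passed downwards and Mx1 alone upwards, beside 17.9% and 12.7% of all genes. Tumour 2 was picked from these values, so larger falls and smaller errors without it follow from the choice, and these counts are a description with no test of the other 5 tumours.

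**Figure D3:**
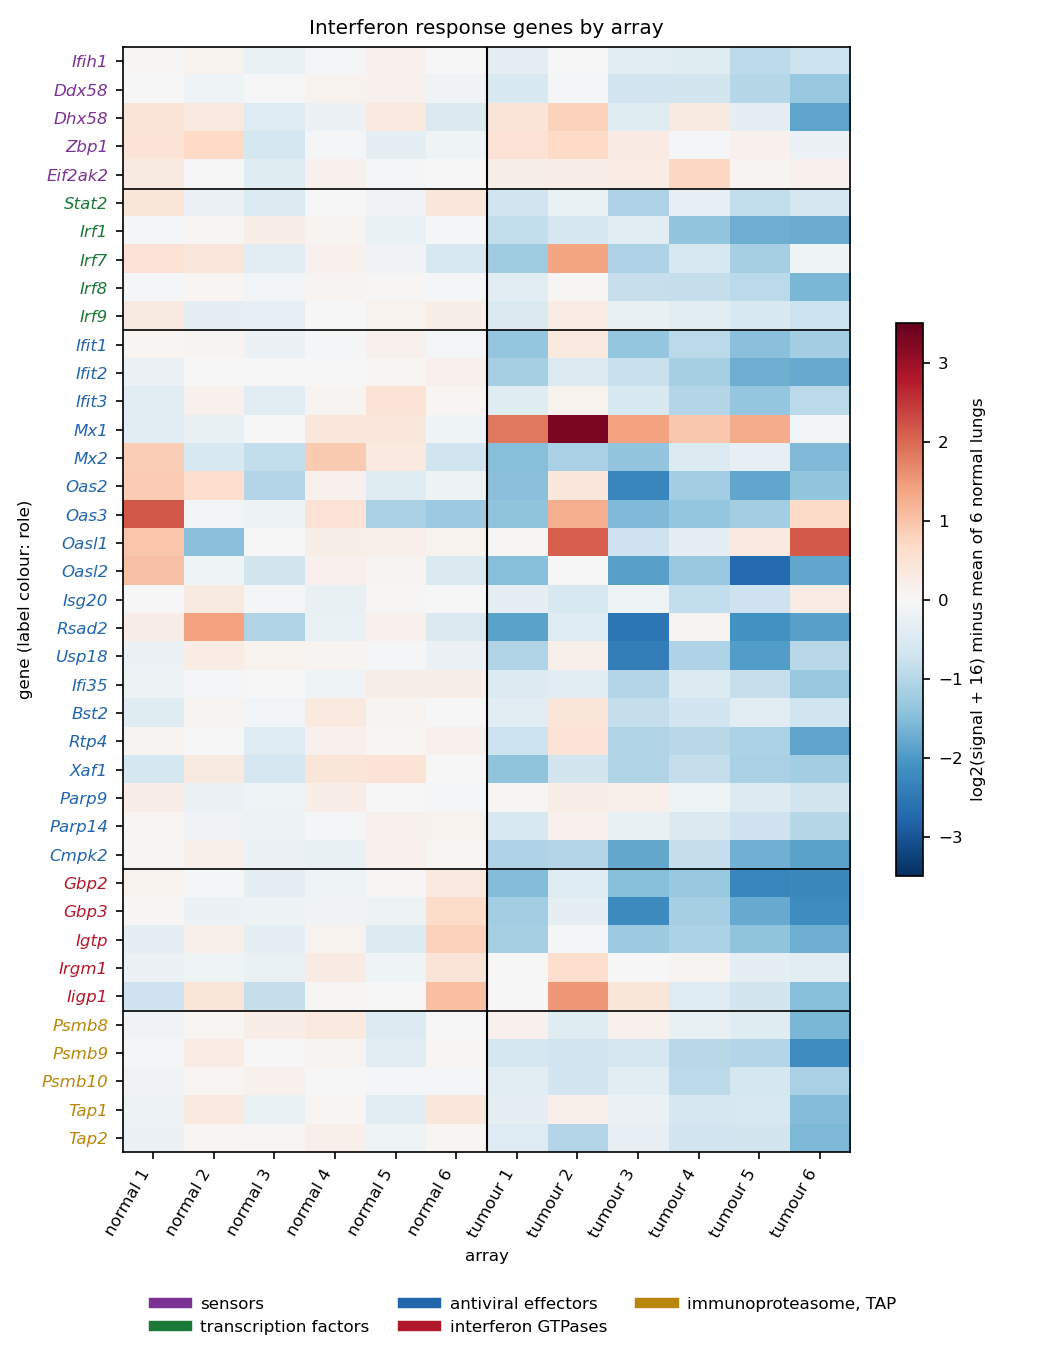
Signal of the 39 genes (rows, coloured by role) on the 12 arrays (columns), as log2(signal + 16) minus the mean of the 6 normal lungs. Blue is lower and red higher than that mean. The column of tumour 2 is mixed, while the columns of the other 5 tumours are mostly blue; Mx1 is red in tumours 1 to 5.

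Markers of several other cell types differed between the groups or between tumours, not all in the same way as the members. The counts of falls and rises stand beside 17.4% and 12.1% of all genes. Falls of 1 in 6 or 7 markers and of 2 in 9 are near that share. The 8 endothelial markers all fell, and their summed signal was 49073 to 66527 in normal lungs and 3019 to 9529 in tumours, with tumour 2 at 5360.3. Of 8 natural killer markers 4 fell, with summed signals of 1826 to 4578 in normal lungs. Tumour 2 had 3090.2 on that sum, and the other tumours 350.3 to 1182. Of 9 T cell markers 2 fell, and their sum was 1337 to 2292 in normal lungs, 2187 in tumour 2 and 372 to 868 in the other tumours. Gzmb, a cytotoxic granule protease, reached 926 in tumour 2 against at most 125 in the other tumours. Tumour 2 lay above the lowest normal lung for 6 of 8 natural killer and 7 of 9 T cell markers. Gzma (188), Ncr1 (41.9), Cd2 (214) and Cd5 (56.9) were below every normal lung in tumour 2. The lowest normal lungs had 576, 80.0, 253 and 84.6 for these. Macrophage markers went the other way, with 5 of 10 higher and 2 lower, and sums of 12656 to 17684 in normal lungs against 15961 to 34228 in tumours (23443 in tumour 2). Plasmacytoid dendritic cells are professional makers of type I interferon. Of their 6 markers 1 fell, Tcf4, with sums of 5639 to 8117 in normal lungs and 1637 to 5709 in tumours (2489 in tumour 2). Tcf4 and Cox6a2 were the brightest of the 6, with means of 3850 and 1417 in normal lungs. Siglech was at 18.9 to 90.3 in normal lungs and 20.2 to 102 in tumours and did not pass (-0.017 ± 0.37). In tumour 2 Siglech, Ccr9, Cox6a2 and Spib were at 20.2, 7.11, 135 and 114, Tcf4 was at 1780.4, and Pld4 was the highest of the tumours at 432. B cell markers, of which 3 of 5 fell, had their lowest sum of all 12 samples in tumour 2, at 448. The other tumours had sums of 714 to 1931 and normal lungs 1093 to 12770.2. Ms4a1 and Pax5 were lowest in tumour 3, and Cr2 in tumour 5. Of 7 conventional dendritic cell markers 1 fell, with sums of 1169.7 to 1987 in normal lungs, 1340.02 in tumour 2 and 593 to 2092 in the other tumours. None of the markers was listed at 0 on all arrays. The part of these cells in the interferon gene differences was not tested.

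Facts of the whole series bear on these values. Median signals per array were 151 to 164 in normal lungs and 126 to 149.8 in tumours, lowest in tumour 2. The lung label was checked with 6 markers of surfactant-producing cells, which were bright in both groups, with sums of 104386 or more in each normal lung and 97942 or more in each tumour. Sex-linked transcripts differed between the groups. The Y-linked Eif2s3y reached at least 740 in tumours 1, 2, 3 and 5, and the other 8 samples had at most 27.4. Xist was at 47.1 to 109 in those 4 tumours and at 7877 to 12621 in the other 8 samples. All 6 normal lungs were thus of 1 type, and this sex-linked difference and the group cannot be fully told apart. Normal lungs 2 and 4 had summed hepatocyte markers of 20290.4 and 23355, and no other sample had more than 5904. Normal lung 1 had a summed signal of 133468 over 5 neutrophil markers, and no other sample had more than 22231. It was the highest of all 12 samples for Stat2, Irf9, Oas2, Oas3 and Oasl2, and without it 17 members fell, beside 16.3% of all genes. Normal lung 3 had the highest B cell sum, and the next highest was 2291. Without it 23 members fell, beside 15.7% of all genes. Without normal lungs 2 and 4 together 14 members and 13.3% of all genes fell. With Eif2s3y as a covariate 17 members and 11.8% of all genes fell, and the median of the members was -0.90, beside -0.69 in the main fit. Without the 4 tumours with Eif2s3y, which left tumours 4 and 6, 22 members and 13.8% of all genes fell. The median of the members was then -0.98. That setting also left out tumour 2, the highest tumour on the mean over the members (0.14), and kept tumour 6, the lowest (-1.08). Without tumour 2 alone the median was -0.83. In that setting the loss of tumour 2 and of the Eif2s3y tumours cannot be told apart.

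Among the sensors, the 2 RNA helicases that start the antiviral response fell. Ddx58, which encodes RIG-I, ran from 805 to 1002 (median 901) in normal lungs and 346 to 875 (median 561) in tumours. Tumour 2 lay within the normal range and the other 5 tumours below it. The difference was -0.70 ± 0.18 (limma adjusted p = 0.00888), and its other 2 probe sets also fell. Ifih1, which encodes MDA5, ran from 1227 to 1587 (median 1461) in normal lungs and 754 to 1440.3 (median 1091) in tumours. The highest tumour was again tumour 2, and the difference was -0.46 ± 0.14 (limma adjusted p = 0.0293). Dhx58, the third member of that helicase family, ran from 67.8 to 146 (median 110.4) in normal lungs and 16.9 to 189 (median 103) in tumours and did not pass (-0.18 ± 0.39). Its other 2 probe sets had the opposite sign without passing.

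The other 2 sensors were higher in tumours on some probe sets. Zbp1, a sensor of Z-form nucleic acid that can trigger necroptosis, ran from 104 to 283 (median 155) in normal lungs and 144 to 285 (median 198) in tumours on its brightest probe set (0.23 ± 0.25, limma adjusted p = 0.566). Its dimmer probe set rose, from a mean of 42.5 to 155 (1.68 ± 0.35, limma adjusted p = 0.00265). Eif2ak2, the kinase PKR that stops translation on double-stranded RNA, behaved likewise. Its brightest probe set, at 309.9 to 528 (median 414) in normal lungs and 447 to 700.2 (median 491) in tumours, gave 0.28 ± 0.15 without passing, and both of its others rose, by 0.64 ± 0.15 and 0.67 ± 0.16. Taking the mean of a gene's probe sets, Zbp1 and Eif2ak2 both rose, so their results depended on the probe set. Centring each array on its median also brought Eif2ak2 past the threshold (0.47).

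Of the 5 transcription factors, 3 fell, beside 17.4% of all genes. Irf1, an activator shared by both interferon types, was at 2916, 3144, 3593, 3283, 2616 and 2978 in normal lungs 1 to 6 and at 1692, 2041, 2348, 1172, 925 and 915 in tumours 1 to 6. The groups did not overlap, and tumours 5 and 6 were lowest. Its window above holds the GAS pattern without the ISRE pattern. Irf1 fell by 1.11 ± 0.22 (limma adjusted p = 0.00149). Irf8, a factor of myeloid and dendritic cells, fell as well (-0.75 ± 0.21, limma adjusted p = 0.0158), with tumour 2 at 1219 among normal lungs at 1110.2 to 1266 and the other tumours at 376 to 918. Its other probe set did not pass. Stat2, the transactivating subunit of the type I complex, was at 291 to 559 (median 391) in normal lungs and 186 to 351 (median 258) in tumours. Tumour 3 was the lowest of all samples, and Stat2 fell by 0.62 ± 0.20 (limma adjusted p = 0.0311).

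Irf7, the amplifier of type I interferon transcription, showed the tumour 2 pattern most plainly among the factors. Its signals were 669, 616, 354, 521, 424 and 309 in normal lungs 1 to 6 and 187, 1224, 213, 312, 199 and 417 in tumours 1 to 6. Tumour 2 stood above every normal lung, and tumours 1, 3 and 5 below every one. Over all 12 arrays Irf7 did not pass (-0.47 ± 0.38, limma adjusted p = 0.422). Irf9, the DNA-contacting subunit of the STAT complex, ran from 766 to 1215 (median 1029) in normal lungs and 579.9 to 1184 (median 718) in tumours, with tumour 2 on top, and did not pass either (-0.36 ± 0.17).

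The antiviral effectors made up the largest group. Of these 19 genes 12 fell and 1 rose, Mx1, beside 17.4% and 12.1% of all genes. The IFIT genes, whose proteins bind RNA and hinder viral translation, all fell. Ifit1, with its pair of ISRE patterns, was at 542, 553, 447, 494, 580.04 and 494 in normal lungs 1 to 6 and at 194, 655, 192, 263, 177 and 217 in tumours 1 to 6. Tumour 2 exceeded every normal lung, and the other 5 tumours were all under the lowest of them. Ifit1 fell by 0.99 ± 0.25 over all arrays (limma adjusted p = 0.00984). Ifit2 had no overlap, at 595 to 765 (median 694) in normal lungs and 192 to 494 (median 301) in tumours, and tumour 2 was the highest tumour at 494 (-1.17 ± 0.20, limma adjusted p = 0.00051). Ifit3, which also carries a pair of ISRE patterns, ran from 881 to 1647 (median 1243) in normal lungs and 449 to 1282 (median 705) in tumours. Tumour 2 lay among the normal lungs, and the other 5 tumours were below all of them (-0.69 ± 0.23, limma adjusted p = 0.0368).

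**Figure D4:**
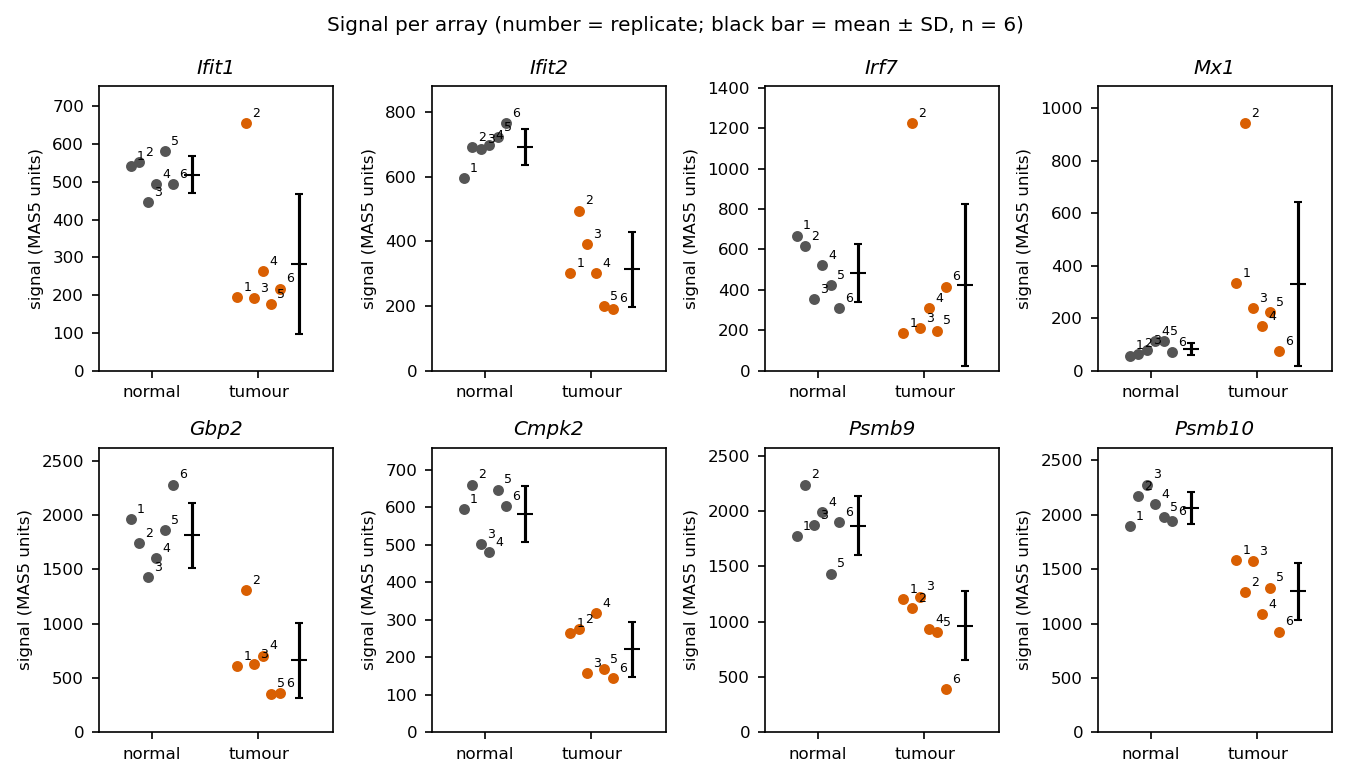
MAS5 signal of 8 genes on each array, with the replicate number beside each point and black bars for the mean ± SD (n = 6 per group); axes start at 0. Tumour 2 is the highest tumour for Ifit1, Ifit2, Irf7, Mx1 and Gbp2 but not for Cmpk2, Psmb9 or Psmb10, and tumour 6 is lowest for Psmb9 and Psmb10.

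The 2 Mx genes differed from each other. Mx proteins are dynamin-like GTPases that trap viral nucleoproteins, and many laboratory mouse strains carry a defective Mx1. Mx1 was at 58.2, 65.5, 80.3, 113, 112 and 71.7 in normal lungs 1 to 6 and at 334, 944, 240.4, 170.3, 223 and 74.6 in tumours 1 to 6. Tumours 1 to 5 were above every normal lung and tumour 6 among them. The rise was 1.45 ± 0.42 (limma adjusted p = 0.0203). With the Y-linked Eif2s3y as a covariate it was 0.53 (limma adjusted p = 0.497), and without the 4 tumours with Eif2s3y 0.42. The latter setting kept only tumours 4 and 6, and so left out tumour 2, the highest sample for Mx1. The rise did not pass without normal lungs 2 and 4 either, although its size was 1.49. Leaving out single arrays gave adjusted p-values of 0.0025 to 0.0437. Mx2 was dim, at 19.9 to 105 in normal lungs and 6.04 to 37.2 in tumours, and did not pass (-1.06 ± 0.37, limma adjusted p = 0.0508); it passed downwards with an offset of 1 (-1.70) and without normal lung 2, 3 or 6 or tumour 4 or 5 (lowest adjusted p 0.0303).

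The oligoadenylate synthetase family was split. Its enzymes make the second messenger that activates RNase L, and Oasl1 encodes a relative without that activity. Oas2 ran from 240.1 to 950.2 (median 506) in normal lungs and 90.5 to 660.0 (median 179) in tumours, and Oasl2 from 678 to 2204 (median 1056) in normal lungs and 148 to 1076 (median 332) in tumours. In both, tumour 2 lay among the normal lungs and the other 5 tumours below all of them. Oas2 fell by 1.30 ± 0.40 (limma adjusted p = 0.0277) and Oasl2 by 1.54 ± 0.37 (limma adjusted p = 0.00681). Oas3, at 34.6 to 541 (median 95.5) in normal lungs and 26.4 to 279 (median 34.5) in tumours, and Oasl1 did not pass (-0.60 ± 0.62 and 0.60 ± 0.52). In these, tumours 2 and 6 were the highest tumours, Oasl1 being at 544 and 563 there and at 63.6 to 151 in the other 4.

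Usp18, which removes ISG15 from proteins and blocks the type I receptor, was at 687, 954, 864, 856, 757 and 682 in normal lungs 1 to 6 and at 371, 896, 136, 367, 192 and 397 in tumours 1 to 6. Tumour 2 was the second highest of all 12 samples, and the other tumours lay below the normal range. Usp18 fell by 1.22 ± 0.32 (limma adjusted p = 0.0117). Rtp4, an interferon-induced chaperone, was at 2674 in tumour 2, above the normal lungs (1397 to 2145), and below them in the other tumours (526 to 1130.3). It also fell (-0.88 ± 0.28, limma adjusted p = 0.031). Bst2, the tetherin that holds budding virions at the cell surface, ran from 703 to 1198 (median 979) in normal lungs and 529 to 1285 (median 656) in tumours, tumour 2 being the highest of all samples, and did not pass (-0.42 ± 0.20).

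Rsad2 and Cmpk2 are neighbours in the genome, and their enzymes act in turn to make a chain-terminating nucleotide. Cmpk2 was at 595, 661, 503, 481, 648 and 604 in normal lungs 1 to 6 and 264, 275, 157, 319, 169 and 146 in tumours 1 to 6. No tumour reached the normal range, tumour 2 included. Cmpk2 had the smallest adjusted p of the 39 (-1.38 ± 0.20, limma adjusted p = 0.000103), and its other probe set also fell. Rsad2, which encodes viperin, was more variable, at 496 to 2765 (median 1017) in normal lungs and 165 to 1102 (median 268) in tumours. Tumours 2 and 4 lay within the normal range, at 761 and 1102, and the other 4 below it (-1.47 ± 0.46, limma adjusted p = 0.0288).

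In Xaf1 and Ifi35 every tumour stayed below the normal range. Xaf1, a promoter of apoptosis, ran from 892 to 1918 (median 1537) in normal lungs and 507 to 867 (median 631) in tumours and Ifi35, a partner of the NMI protein, from 4161 to 5393 (median 4620.3) in normal lungs and 1854 to 3545 (median 3039.7) in tumours. The differences were -1.05 ± 0.21 and -0.76 ± 0.16, and both other probe sets of Ifi35 fell. Parp14, an ADP-ribosyltransferase, fell by 0.48 ± 0.17 (limma adjusted p = 0.0478), although tumour 2 was the highest of all 12 samples at 1149. Its partner Parp9 ran from 990.1 to 1349 (median 1113) in normal lungs and 737 to 1351 (median 1104) in tumours and did not pass (-0.14 ± 0.16). Isg20, an exonuclease gene, ran from 1527 to 2292 (median 1839) in normal lungs and 1003 to 2214 (median 1355) in tumours and did not pass either (-0.40 ± 0.17), tumour 6 being the highest tumour.

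The interferon-inducible GTPases, which act on the vacuoles of intracellular pathogens, held 2 of the 3 steepest falls and also 2 genes that did not pass. Gbp2 was at 1965, 1744, 1429, 1604, 1863 and 2281 in normal lungs 1 to 6 and 611, 1309, 627, 706, 358 and 365 in tumours 1 to 6, and Gbp3 had the same lack of overlap. Tumour 2 came nearest to the normal range in both. Gbp2 fell by 1.55 ± 0.25 (limma adjusted p = 0.000342). Gbp3 fell by 1.48 ± 0.29 (limma adjusted p = 0.00136). Igtp, an immunity-related GTPase whose window carries both patterns, ran from 1231 to 3023 (median 1606) in normal lungs and 509 to 1630.5 (median 729) in tumours. Tumour 2 lay within the normal range and the other 5 tumours, at 509 to 778, below it. Igtp fell by 1.12 ± 0.26 (limma adjusted p = 0.00515). Irgm1, which restrains the other GTPases of its family, ran from 841 to 1359.9 (median 892) in normal lungs and 755 to 1498 (median 997) in tumours, with a difference of -0.00018 ± 0.18. Iigp1 ran from 955 to 3626 (median 1761) in normal lungs and 602 to 4974 (median 1505) in tumours, with tumour 2 above and tumour 6 below every normal lung, and did not pass (-0.10 ± 0.43). The signs of Irgm1 and Iigp1 turned under median centring.

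Among the proteasome and transporter genes tumour 2 was the highest tumour for 1 of 5, Tap1. Interferon replaces the catalytic subunits of the standard proteasome with Psmb8, Psmb9 and Psmb10, and Tap1 and Tap2 carry the resulting peptides into the endoplasmic reticulum. Psmb9 was at 1774, 2239, 1873, 1991, 1435 and 1902 in normal lungs 1 to 6 and 1205, 1126, 1227, 934, 905 and 392 in tumours 1 to 6. Every tumour was under every normal lung and tumour 6 was far below the rest. Psmb9 fell by 1.02 ± 0.23 (limma adjusted p = 0.00426). Psmb10 (-0.68 ± 0.13, limma adjusted p = 0.00151) and Tap2 (-0.78 ± 0.18, limma adjusted p = 0.00565) fell without overlap as well, at 1897 to 2277 (median 2036) in normal lungs and 927 to 1585 (median 1309.9) in tumours for Psmb10. Tumour 2 had 515 for Tap2, the second lowest tumour.

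Psmb8 and Tap1 did not pass (-0.40 ± 0.25 and -0.50 ± 0.24). Psmb8 was at 775 in tumour 6, while the other tumours had 1790.1 to 2679 and normal lungs 1723 to 3035. Tap1 ran from 477 to 839 (median 608) in normal lungs and 211 to 715 (median 459) in tumours, with tumour 2 the highest tumour and tumour 6 the lowest. It passed downwards with Eif2s3y as a covariate (-0.95) and without the tumours with Eif2s3y (-1.05), a setting that kept only tumours 4 and 6. Tumour 6 was the lowest tumour for all 5 of these genes, and for 22 of the 39 members, against 20.1% of all genes. Tumour 6 was picked from these same values, so these counts are a description and no test. The 4 genes Psmb9, Tap1, Psmb8 and Tap2 lie side by side in the MHC region, and the promoter windows of Psmb9 and Tap1, transcribed in opposite directions, share 275 bases. Of the 3 constitutive subunits that the interferon-induced ones replace, 2 rose and 0 fell, beside 12.1% and 17.4% of all genes. These were Psmb5 and Psmb6 (0.56 ± 0.12 and 0.40 ± 0.12, limma adjusted p = 0.00286 and 0.0244), and Psmb7 gave 0.40 ± 0.18 without passing.

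**Figure D5:**
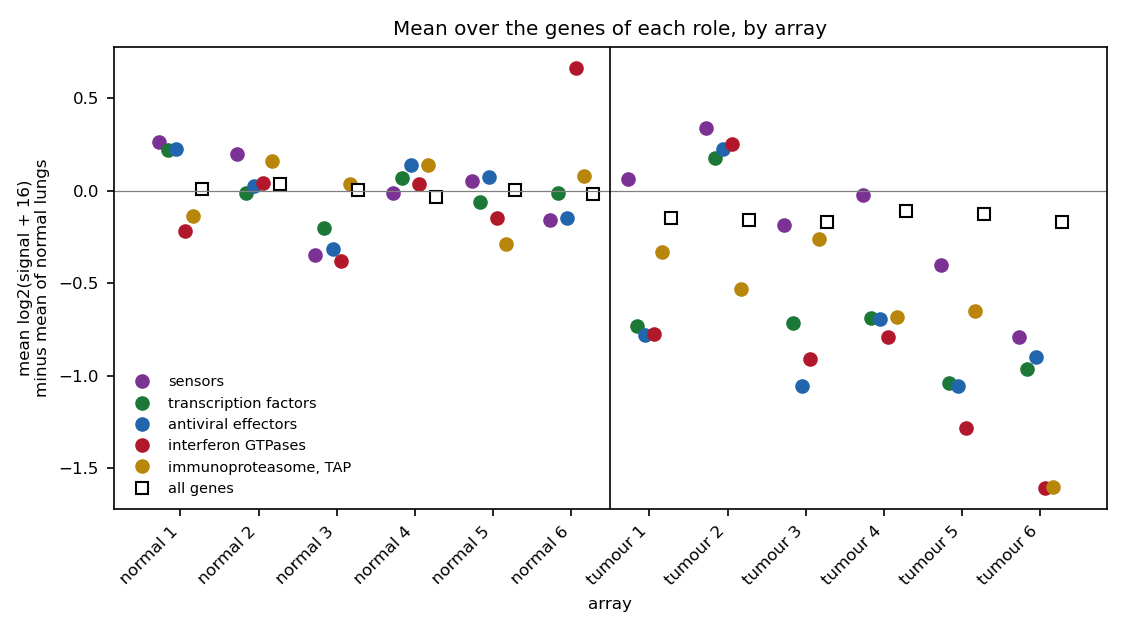
Mean log2(signal + 16) over the genes of each role on each array, minus the mean of the 6 normal lungs, with open squares for all 18193 genes. In tumour 2 the means of 4 roles lie above 0 and that of the immunoproteasome and TAP genes at -0.53. In tumour 6 that role is at -1.60, while all genes lie near -0.17.

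Averaged by role, the tumours other than 2 ranged from -1.06 to -0.69 for antiviral effectors and from -1.61 to -0.78 for the GTPases, relative to the normal mean. Tumour 2 was at 0.23 and 0.25 for these roles. For the sensors the range of those 5 tumours was -0.79 to 0.064, and for the transcription factors -1.04 to -0.69. Normal lung 6 had the highest GTPase mean of the normal lungs, 0.66.

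The genes upstream of these targets were taken from lists of the pathway. Counts of falls and rises in the pathway lists stand beside 17.4% and 12.1% of all genes. Of 6 interferon ligands measured 1 passed, Ifna2, which was dim, at 73.6 to 199 (median 173) in normal lungs and 5.92 to 76.1 (median 10.5) in tumours (-2.34 ± 0.36, limma adjusted p = 0.000188); interferon alpha genes are near-identical copies, so its probe set may read several. Ifng and Ifnb1 were dim, at most 61.4 and 113 on any array, and did not pass (-0.39 ± 0.43 and -0.092 ± 0.35). Of 9 receptor and kinase genes 2 fell. The interferon gamma receptor chain Ifngr1 ran from 1724 to 2801 (median 2181) in normal lungs and 691 to 1640.5 (median 1128) in tumours (-0.98 ± 0.19, limma adjusted p = 0.00168), and the kinase gene Jak1 gave -0.68 ± 0.15 (limma adjusted p = 0.00367), both without overlap. Ifnar1, a chain of the type I receptor, gave 0.013 ± 0.11.

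Among 9 feedback inhibitors 2 rose and 3 fell. Socs3, an inhibitor of cytokine receptor kinases, rose by 1.05 ± 0.31 although normal lung 1 was the highest sample (4033), and the phosphatase gene Ptpn2 by 0.87 ± 0.16 (limma adjusted p = 0.0237 and 0.000785), Ptpn2 with no overlap. Samhd1, which depletes nucleotides, fell by 0.88 ± 0.21, and Pias1 and Ptpn11 gave -0.71 ± 0.13 and -0.56 ± 0.12. Of 12 genes that lead from nucleic acid sensing to interferon production 1 passed, the kinase gene Tbk1 (-0.42 ± 0.14, limma adjusted p = 0.0428).

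The other MHC class I genes were split, with 4 of 10 lower and 2 higher. B2m, the invariant light chain, ran from 20746 to 30502 (median 25675) in normal lungs and 9971 to 21051 (median 19544) in tumours and tumour 6 was the lowest (-0.56 ± 0.18, limma adjusted p = 0.037). H2-K1 (-0.59 ± 0.20) and H2-D1 (-0.59 ± 0.16) also fell, with the reserve that class I heavy chains are near-identical copies and that probe sets may not separate them. Nlrc5, their transactivator, fell by 1.18 ± 0.33 (limma adjusted p = 0.0157), with tumour 2 at 685 against 116 to 272 in the other tumours. The chaperone gene Pdia3 and the proteasome activator gene Psme1 rose (0.40 ± 0.12 and 0.65 ± 0.14).

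Chemokines that interferon induces in many cells were highest in tumour 2 among tumours for all 4 genes. Of the 4, Ccl5 passed, downwards (-2.04 ± 0.57, limma adjusted p = 0.0162), being at 951, 1406, 1177, 1501, 675 and 1627 in normal lungs 1 to 6 and 158, 2193, 186, 265, 320.3 and 62.5 in tumours 1 to 6. Tumour 2 was above every normal lung and the other 5 tumours below. Cxcl9 reached 329.9 in tumour 1 and 380.1 in tumour 2, against 14.0 to 93.4 in normal lungs, and did not pass (1.10 ± 0.55). Cxcl10 (0.15 ± 0.42) and Cxcl11 (1.35 ± 0.49) did not pass either, Cxcl11 being at 415 in tumour 2 and at 75.6 to 119 in the other tumours.

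Of the 23 other probe sets of the members, 9 fell and 3 rose. Over all genes, read from their brightest probe sets, 17.4% fell and 12.1% rose. The sign was that of the member's brightest probe set in 21. Only the 2 dimmer probe sets of Dhx58 had the opposite sign, and no called pair disagreed.

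Of the 23 falls, 16 held whichever single array was left out and 7 could be lost. Parp14 passed only when no array, tumour 2 or tumour 3 was omitted (limma adjusted p from 0.0042 to 0.0951). Rtp4 passed only when no array, normal lung 3, tumour 1 or tumour 2 was omitted (0.000262 to 0.0621). Ifit3 no longer passed when normal lung 2, 4, 5 or 6 was omitted, nor when tumour 4, 5 or 6 was (0.00471 to 0.0861). Rsad2 behaved likewise for normal lungs 1, 2 and 5 and tumours 1, 3, 5 and 6 (0.00597 to 0.0688). The Ifih1 call depended on normal lungs 1, 2, 5 and 6 and tumours 5 and 6 (0.00566 to 0.064). Stat2 depended on normal lungs 1, 4 and 6 and tumours 1, 3 and 5 (0.0171 to 0.0767), and Oas2 on normal lungs 1, 2 and 4 and tumours 3 and 5 (0.00141 to 0.0664). Isg20 passed downwards without tumour 6 (limma adjusted p = 0.0149). Without normal lungs 2 and 4, the falls of Ifih1, Stat2, Irf8, Ifit3, Oas2, Rsad2, Usp18, Rtp4 and Parp14 did not pass. With Eif2s3y as a covariate those of Ifih1, Stat2, Ifit1, Oas2, Oasl2, Rsad2 and Usp18 did not, and median centring ended those of Ifih1, Ddx58, Stat2, Irf8, Ifit3, Oas2, Rtp4 and Parp14. The 10 falls without overlap passed in each of these 3 settings. Eif2s3y was high in 4 tumours and in no normal lung, so that covariate overlaps with the group. With it the median of the members was -0.90, beside -0.69 in the main fit. At an unadjusted limma p under 0.05, 25 members were lower with it and 26 in the main fit.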

How the data were processed

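RNA from 6 normal lungs and from 6 lung tumours that arose spontaneously was hybridised, 1 sample per array, after one-cycle labelling per the labels' protocols. MAS5 produced the deposited values, per the submitters' processing notes: a linear signal intensity for every probe set. The MAS5 version and settings are not given in the sources used here. The authors' scaling, a 2% trimmed mean of 500 on every array, was kept. The 64 array controls among 45101 probe sets were not tested. Probe sets were named by the platform annotation (34945 probe sets with 1 symbol, 932 with several, 9160 with none listed), checked against RefSeq.

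Signals were transformed to log2(signal + 16); the offset makes differences of dim genes smaller. Group differences were estimated in limma 3.58.1 (R 4.3.3) by lmFit and eBayes with trend, two-sided and without covariates, and p-values were adjusted by Benjamini-Hochberg across the 45037 probe sets. The number of arrays limits the precision. The fit was also run on simulated data with few changed probe sets and the spread of the normal lungs in both groups. That run does not show how the fit does where tumours varied more. The members and lists were chosen with earlier results of these data known, so no test was made over a list.

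Genes are given array by array, or as the lowest, median and highest of each group, where they passed without overlap, where 1 tumour led by most, and at least once per role. Of the pathway lists, called genes could be named, and Ifng, Ifnb1, Cxcl9 and Cxcl10 whatever their result. Values of other named genes were already known when those genes were picked. The alternatives tried were offsets of 1 and 64, quantile normalization, median centring, dropping probe sets under 50 signal units in both groups, no trend, array weights, the replicate number as a block, averaging a gene's probe sets, Eif2s3y as a covariate, and omitting arrays. Omitting the 4 tumours with Eif2s3y was added after seeing the data. Python 3.11.15, numpy 2.4.6, pandas 2.3.3 and matplotlib 3.10.9 made tables and plots.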

Additional observations from a re-analysis of the deposited data

Results flagged for a closer look

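In 8 of 78 sets of 6 arrays (39 genes in 2 groups), 1 array stood apart from the rest, with a gap to its neighbour of more than 0.625 of the group's range on the log2 scale. Chance alone is expected to set about 1 in 20 groups apart, and over all genes the share was 7.96%, beside 10.3% here. Tumour 2 stood apart as the highest tumour for Ifit1 (655), Bst2 (1285) and Igtp (1630.5). Tumour 6 stood apart as the lowest for Psmb8 (775) and Psmb9 (392). Tumour 4 was the highest for Eif2ak2 (700.2). Among normal lungs, lung 6 was highest for Gbp3 (1281) and lung 3 lowest for Rtp4 (1397).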

How the results depend on the processing

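Leaving out 1 array at a time, 17 to 26 members fell (23 with all arrays), 1 rose each time, and the median difference was -0.83 to -0.62. Of all genes 15.6% to 17.9% fell and 10.4% to 12.7% rose in those fits. The median stayed within the spread between tumours under every alternative. Counts of falls under offsets 1 and 64, quantile normalization, the dim filter, no trend, array weights, probe set means, Eif2s3y as a covariate and without the tumours with Eif2s3y were within 1.5 times the main count. Median centring gave 15 falls and 2 rises, beside 12.8% and 19.1% of all genes, and probe set means 3 rises, beside 10.8%. Without normal lungs 2 and 4 there were 14 falls, beside 13.3% of all genes, with fewer arrays. The count of rises by limma was 0 in that setting, 0 with Eif2s3y as a covariate and 0 without the tumours with Eif2s3y. At an unadjusted p under 0.05 it was 1, 1 and 0. Of all genes 8.38%, 7.18% and 8.98% rose in these settings at the adjusted threshold. With the replicate block 21 members and 15.8% of all genes fell. Same-numbered arrays did not deviate together (correlations -0.018 to 0.022), so the numbers are not taken to pair samples.

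Signs turned for genes that did not pass: Irgm1 with offset 64 (0.00027), quantile normalization (0.034), median centring (0.19) and without normal lungs 2 and 4 (0.034); Iigp1 with median centring (0.085) and without those lungs (0.015); Dhx58 with median centring (0.012) and probe set means (0.21). Parp9 turned with median centring (0.050), and Zbp1 with Eif2s3y as a covariate (-0.0056) and without the tumours with Eif2s3y (-0.14). Leaving out single arrays gave -0.12 to 0.090 for Irgm1, -0.43 to 0.17 for Iigp1 and -0.37 to 0.16 for Dhx58. Of 936 gene results under alternatives, 91 lost and 18 gained a call, 20 turned sign and 807 did neither. Signals near the offset, as for Mx2, Ifng and Ifna2, give imprecise differences.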

Other observations

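Some genes were high in both tumours 2 and 6, a pattern chosen after the values were seen and not tested. Oasl1, an OAS-like antiviral gene, was at 544 and 563 in these tumours, while the other 4 had 63.6 to 151 and normal lungs 31.7 to 243. Ikbke, which encodes a kinase that phosphorylates IRF3 and IRF7, was at 945 and 849, while the other 4 had 120.4 to 185 and no normal lung more than 261. Jak2, a kinase of the interferon gamma receptor, was at 2074 and 1752, and between 920.01 and 1384 in the other 10 samples. Tumour 6 was at the same time the lowest tumour for 7 of the 10 other MHC class I genes, with B2m at 9971 and H2-K1 at 6118, where normal lungs had at least 20746 and 11888. These 2 tumours also stood apart in some cell markers. Summed type II cell markers were 119548 and 97942 in tumours 2 and 6, and 165926 to 207613 in the other 4. Abca3, a lipid transporter of these cells, was at 4471 and 4482, and at 12273 to 13479 in the other 4. Sftpa1, Sftpd and Napsa were also lower in these 2 tumours than in the other 4. Sftpb and Sftpc were not: Sftpb was at 31868 in tumour 2, above tumours 1 and 4, and Sftpc was lowest in tumour 1. The collagen gene Col1a1 was at 4066 and 3763, and at 938 to 1672 in the other 4. Col1a2 and Col3a1 were also highest in these 2 tumours. Pdgfra, Tcf21 and Dpt, on the same fibroblast list, were not, at 724, 316 and 376 in tumour 2. Tumour 6 had 1575, 341 and 375 for them, and tumour 4 had 2682, 1296 and 894. The part of these cells in the pattern was not tested.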
